A study of Pinus pinaster with 30 samples.

Results

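A set of 6 cDNA spots of the small RNA pathway was followed through zygotic embryogenesis of maritime pine (*Pinus pinaster*): 3 of microRNA processing (DCL1, HYL1 and DDL) and 3 of small RNA binding (AGO1 on 2 spots, and AGO9). They were chosen by spot position and by the study's gene assignments, and make up 6 of the 26496 spots on the array. A spot is named by its grid row, grid column, spot row and spot column. The names are those of the closest *Arabidopsis thaliana* proteins, so each spot stands for a putative ortholog. All 6 belong to the study's own list of transcripts that changed on these same arrays, and their changes are therefore no independent evidence that the pathway changes.

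Embryos were taken on 5 collection days. Day0 held early embryos (stages T0, T1 and T2), Day5 held pre-cotyledonary ones (T3 and T4), Day11 held the early cotyledonary stage (T4B), Day15 the cotyledonary stage (T5) and Day25 the mature stage (T7). Every day has 3 biological samples, each a pool of 60 dominant embryos, in some cases from several extractions, and each sample was hybridized to 2 technical replicate arrays, which gives 30 arrays. All embryos came from open-pollinated trees of 1 clonal orchard, with cones of only a few trees on each date, so collection date and stage cannot be told apart. RNA was amplified in 2 rounds before labelling. Embryo RNA carried Cy3 on every array, and Cy5 marked a common reference pool made from the RNA of all 15 samples, with no dye swap.

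MicroRNAs are cut out of longer hairpin transcripts in the plant nucleus by DCL1, a dicer-like ribonuclease III. HYL1, a protein that binds double-stranded RNA, helps DCL1 to cut at the right place, and DDL (DAWDLE), a protein with a forkhead-associated domain, binds RNA and promotes the accumulation of microRNA precursors. The small RNAs are then loaded into Argonaute proteins. In *A. thaliana* AGO1 carries most microRNAs and cleaves or represses their target transcripts, whereas AGO9 binds small interfering RNAs that silence transposable elements and is best known from the ovule.

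Of the 6 transcripts, 3 were measured in the study by RT-qPCR as well, and the primer pairs are printed because they mark the stretch of each pine transcript by which it can be found again. They carry no capitals, since no base of them is singled out. The RT-qPCR values were not analysed here. Among the genes it measured this way, the paper reports the lowest correlation between array and RT-qPCR for the unigene of HYL1.
DCL1, primer 1 (unigene 28419): tgaacaccaccaaaaggaattg
DCL1, primer 2: tctcgtctttgcttgacttatc
HYL1, primer 1 (unigene 25311): gtaacatacccctccaagaaatc
HYL1, primer 2: tccctcccctgacttttcg
AGO9, primer 1 (unigene 5048): tgcagattcttgtccatgcttt
AGO9, primer 2: ctggctcgcagctaaatgc

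Each value is a log2 ratio, embryo signal divided by pool signal, so that 0 means the level of the pool and a difference of 1 is a 2-fold difference. A ratio sets 1 transcript against itself in the pool and does not rank transcripts by abundance. An array value was kept where both quality marks in the files kept the spot, and this left 41.0% to 70.5% of all spots on an array. A spot was tested if no day had fewer than 2 samples with kept values, which held for 14513 spots and for DCL1, DDL, AGO1 (2.2.5.12) and AGO9. HYL1 and AGO1 (9.4.14.10) did not reach this, and their values come from all arrays whatever the marks, in a second fit over all 26496 spots. In both fits limma compared day means, with p adjusted over all spots of the fit (Benjamini-Hochberg) and 0.05 as the limit.

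Over all tested spots, 13 of the 15 samples had their highest correlation within their day. The exceptions were replicates 2 and 3 of Day15, each nearest to a Day11 sample (r = 0.78 and 0.69). The stage labels were checked with 13 spots named as late embryogenesis abundant or storage proteins, which accumulate in maturing seeds. Of the 9 tested, 8 were higher and 1 was lower on Day25 than on Day0, where 23.6% of all tested spots were called higher and 23.6% lower. All 13 were named only in the study's lists of changed transcripts on these same arrays. That they changed is therefore no independent evidence, and only their direction bears on the labels. The median background in Cy5 lay between 124 and 404 scanner units per array on Day15 and between 64 and 213 on Day0 to Day11, and its part in the Day15 values was not tested. On Day25 it was 88.0 to 377.5.

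DCL1 transcripts declined while the binding transcripts and DDL increased. On Day25, 1 of the 4 tested spots was lower than on Day0 (DCL1) and 3 were higher (DDL, AGO1 2.2.5.12 and AGO9), where 23.6% of all tested spots were called lower and 23.6% higher. The medians of Day25 minus Day0 were 0.97 over the 4 spots and -0.02 over all tested spots. In the fit of all arrays, 4 of the 6 spots were higher on Day25 than on Day0, 1 was lower, and HYL1 did not pass (median 0.80), against 25.2% of all spots called higher and 25.4% called lower. The Day25 and Day0 samples of the 4 tested spots did not overlap, which held in the higher direction for 27.7% of all tested spots and in the lower direction for 28.1%. From all arrays they did not overlap for any of the 6 spots, against 26.9% of all spots with no overlap in the higher direction and 27.4% in the lower. Bulk embryo RNA cannot tell fewer cells that express a gene from less RNA in each cell.

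**Figure D1:**
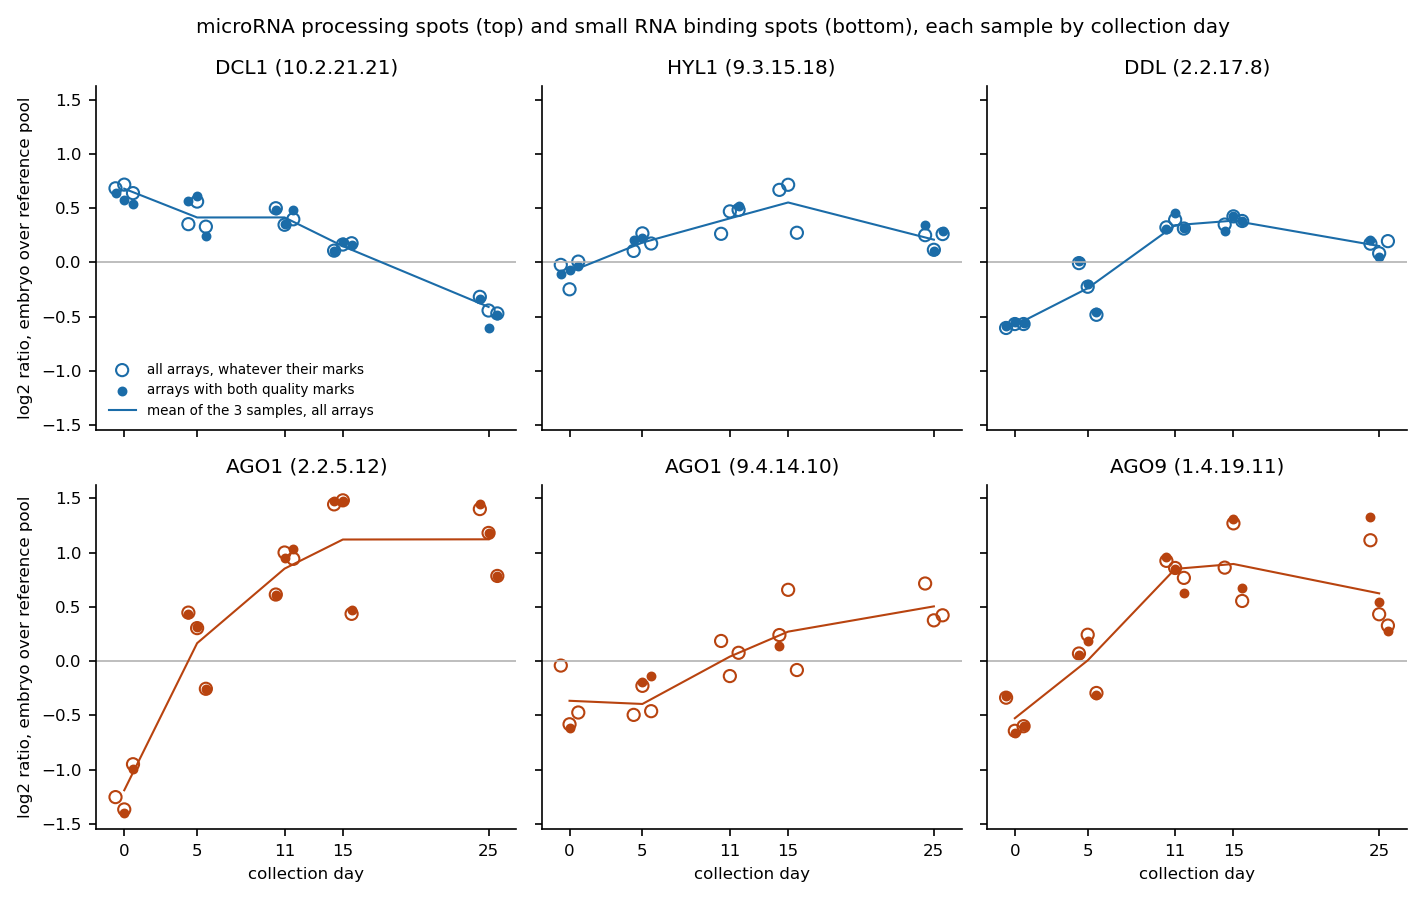
Log2 ratio of embryo over reference pool (y axis) against collection day (x axis) for the 3 microRNA processing spots (top row) and the 3 small RNA binding spots (bottom row). Open circles are single samples from all arrays, filled circles the same samples from arrays with both quality marks, and lines join the means of 3 samples; DCL1 ends lowest on Day25, and the other 5 spots are lowest on Day0 or Day5.

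DCL1 (unigene 28419, closest to AT1G01040) is the nuclease that cuts the precursors. Its log2 ratio was 0.64, 0.58 and 0.54 in the 3 samples of Day0, 0.57, 0.61 and 0.24 on Day5, 0.48, 0.35 and 0.48 on Day11, 0.11, 0.19 and 0.16 on Day15 and -0.34, -0.60 and -0.48 on Day25. Day5 overlapped both Day0 and Day11, all Day15 samples lay below these days, and all Day25 samples lay below those of Day15. Day25 was lower than Day0 by 1.06 on the log2 scale (-1.06 ± 0.12, SE of the fit), a 2.08-fold difference with a limma adjusted p of 6.5e-06.

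Of the steps of DCL1 between neighbouring collection days, only the last passed. Day15 minus Day0 was -0.43 ± 0.12 (limma adjusted p = 0.013). Day25 minus Day15 was -0.63 ± 0.12 (adjusted p = 0.0052), and 9.2% of all tested spots moved by more between these days. DCL1 was the only tested spot of the 4 that passed between cotyledonary and mature embryos, where 3.5% of all tested spots were called lower and 5.53% higher. The steps before Day15 did not pass: Day5 minus Day0 was -0.11 with a 95% confidence interval of -0.37 to 0.15, and Day11 minus Day5 was -0.03 (-0.29 to 0.22). From all arrays Day5 minus Day0 was -0.26 (-0.49 to -0.04) and did not pass either (limma adjusted p = 0.14). Day15 minus Day11 was -0.26 there too (-0.49 to -0.04). A decline that began before Day15 is therefore not excluded.

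Ordered by level, the days of DCL1 ran Day25, Day15, Day11, Day5 and Day0 from lowest to highest. Of the 4 steps between neighbours in this order, only Day25 to Day15 passed the test. The call for Day15 against Day0 was lost with scaled log2 ratios (-0.35, adjusted p = 0.075) and with either technical array of each sample alone. With the second technical array alone Day25 minus Day15 was -0.56 and was lost as well (adjusted p = 0.062).

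DCL1 had the dimmest spot of the 6: 82.9% of all spots had a brighter median Cy5 signal. In Cy3, which carries the embryo RNA, its raw signal was 458 to 823 scanner units on Day25 and 919 to 1841 on Day0. Every Day25 array was therefore dimmer than every Day0 array before any normalization. The Cy5 signal of the pool was 415 to 1164 on Day25 and 513 to 851 on Day0, so the ranges of the reference overlapped. With background correction by normexp, Day25 minus Day0 was -1.17.

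HYL1 (spot 9.3.15.18) is the RNA-binding partner of DCL1. Both marks kept only 9 of its 30 arrays, none of them on Day15. Its Cy3 signal was 1424 to 4203 and at least 29.1 times the local background, and no array was saturated. In Cy5 its signal was 945 to 3050 and at least 3.8 times the background. Of all spots, 58.3% had a brighter median Cy5 signal. All the arrays that were not kept failed the first of the 2 marks, and none failed the second.

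From all arrays, HYL1 was at -0.02, -0.25 and 0.01 on Day0, 0.11, 0.27 and 0.17 on Day5, 0.26, 0.47 and 0.48 on Day11, 0.67, 0.71 and 0.27 on Day15 and 0.25, 0.12 and 0.26 on Day25. Every sample of the later 4 days lay above every Day0 sample. Day15 had the highest mean, but its replicate 3 fell within the range of Day11. From the arrays that were kept, the values were 0.35, 0.11 and 0.29 on Day25 and -0.11, -0.07 and -0.03 on Day0, again without overlap.

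The raw signals of HYL1 were followed in both channels. Its median Cy3 signal over the 6 arrays of a day was 1922.5 on Day0, 2690 on Day5, 2698 on Day11, 3192.5 on Day15 and 2930 on Day25. The pool's median Cy5 signal at this spot was 1939, 2193, 1993.5, 2222.5 and 1565 on the same days. The embryo signal was thus brightest on Day15, and the pool signal was dimmest on Day25, so that before normalization the embryo signal stood furthest above the pool on Day25 and not on Day15.

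In the fit of all arrays the mean of HYL1 was highest on Day15, but neither neighbouring step passed. Day15 minus Day11 was 0.15 (95% confidence interval -0.14 to 0.43, limma adjusted p = 0.95). Day15 minus Day0 was 0.64 ± 0.13 (limma adjusted p = 0.0019 over all spots). All 6 spots passed that comparison, 5 higher and 1 lower, as did 35.7% of all spots in either direction. Day25 minus Day0 was 0.30 with a 95% confidence interval of 0.01 to 0.58 and did not pass (adjusted p = 0.079). Neither did Day25 minus Day15, -0.34 (-0.63 to -0.06, adjusted p = 0.12). Without replicate 3 of Day15, both of these differences passed, with adjusted p of 0.049 and 0.048.

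DDL (spot 2.2.17.8), the forkhead-associated protein, rose between early and cotyledonary embryos. Its kept values were -0.59, -0.55 and -0.56 on Day0, 0.01, -0.20 and -0.46 on Day5, 0.31, 0.46 and 0.32 on Day11, 0.29, 0.43 and 0.38 on Day15, and 0.21 and 0.05 on Day25, where replicate 3 had no kept array. Day0 was the tightest group, and the Day5 samples were spread between Day0 and Day11. Both Day25 samples lay below all samples of Day11 and Day15 and above all of Day5.

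Day15 minus Day0 was 0.93 ± 0.13 for DDL, a 1.91-fold difference (limma adjusted p = 0.00011). All 4 tested spots passed this comparison, 3 higher and DCL1 lower, as did 30.8% of all tested spots in either direction. Day25 minus Day0 was 0.70 ± 0.14 for DDL, 1.62-fold (adjusted p = 0.0011), in a fit with only 2 kept samples on Day25. From all arrays it was 0.73 with 3 samples a day.

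The steepest step of DDL was that between pre-cotyledonary and early cotyledonary embryos. Day11 minus Day5 was 0.58 ± 0.13 (limma adjusted p = 0.040), a comparison in which 0.889% of all tested spots were called higher and 0.689% lower, and DDL was the 1 of the 4 tested spots that passed. This call was close to the limit: it was lost without any 1 of 9 of the 15 samples, Day0 replicate 3, all samples of Day5 except replicate 1, all samples of Day11, replicates 1 and 3 of Day15 and replicate 2 of Day25, and the adjusted p was then 0.052 to 0.25. It was also lost with normexp (0.064), with 1 curve for the whole array (0.055), with only the samples of these days (0.051), and with the first (0.14) or the second (0.26) technical array alone. Between Day11 and Day15 no difference was detected for DDL (0.00, 95% confidence interval -0.27 to 0.28).

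AGO1 (spot 2.2.5.12, unigene 38), the main microRNA carrier, showed the widest range of the 6 spots. Its kept values were -1.40 and -1.0 on Day0, where replicate 1 had no kept array, 0.43, 0.31 and -0.26 on Day5, 0.61, 0.95 and 1.03 on Day11, 1.47, 1.48 and 0.47 on Day15 and 1.45, 1.18 and 0.78 on Day25. The kept Day0 samples were far below all others, and the kept Day5 samples lay below the later days by a small margin. From all arrays Day5 replicate 1 (0.45) lay just above Day15 replicate 3 (0.44), so these days overlapped. Day15 replicate 3 stood well below the other samples of its day and below all samples of Day11. Without it Day15 minus Day0 was 2.67, against 2.34 with it.

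Day25 minus Day0 was 2.34 ± 0.30 for AGO1, a 5.05-fold difference (limma adjusted p = 2.6e-05), and only 1.62% of all tested spots changed by more. Day15 minus Day0 was also 2.34 ± 0.30, exceeded by 0.489% of the tested spots. The first interval held the largest step, where Day5 minus Day0 was 1.36 ± 0.30 (2.57-fold, adjusted p = 0.014). In that comparison 2.94% of all tested spots were called higher and 4.76% lower, and AGO1 was the 1 of the 4 tested spots that passed. From all arrays it was the 1 of the 6 spots that passed, against 3.46% of all spots called higher and 4.97% lower. With Day0 replicate 2, Day5 replicate 1 or Day5 replicate 2 left out the step was 1.16, 1.23 or 1.29 and no longer passed (adjusted p of 0.068, 0.050 and 0.057).

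After Day5 the steps of AGO1 did not pass the test. Day11 minus Day5 was 0.70 (95% confidence interval 0.12 to 1.27, adjusted p = 0.17), Day15 minus Day11 was 0.28 (-0.30 to 0.85) and Day25 minus Day15 was 0.00 (-0.58 to 0.57). None of the 6 spots passed between Day11 and Day15, and neither did any other spot: limma called 0% of the tested spots, with 857 spots at an unadjusted p under 0.05.

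The raw signals of AGO1 (2.2.5.12) show the same order. Its Cy3 signal was 19243 to 48939 on Day25 and 4565 to 9398 on Day0, so the dimmest Day25 array was brighter than the brightest Day0 array. The Cy5 signal was 9172 to 20731 on Day25 and 14248 to 21788 on Day0, with overlapping ranges. No array was saturated at this spot.

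**Figure D2:**
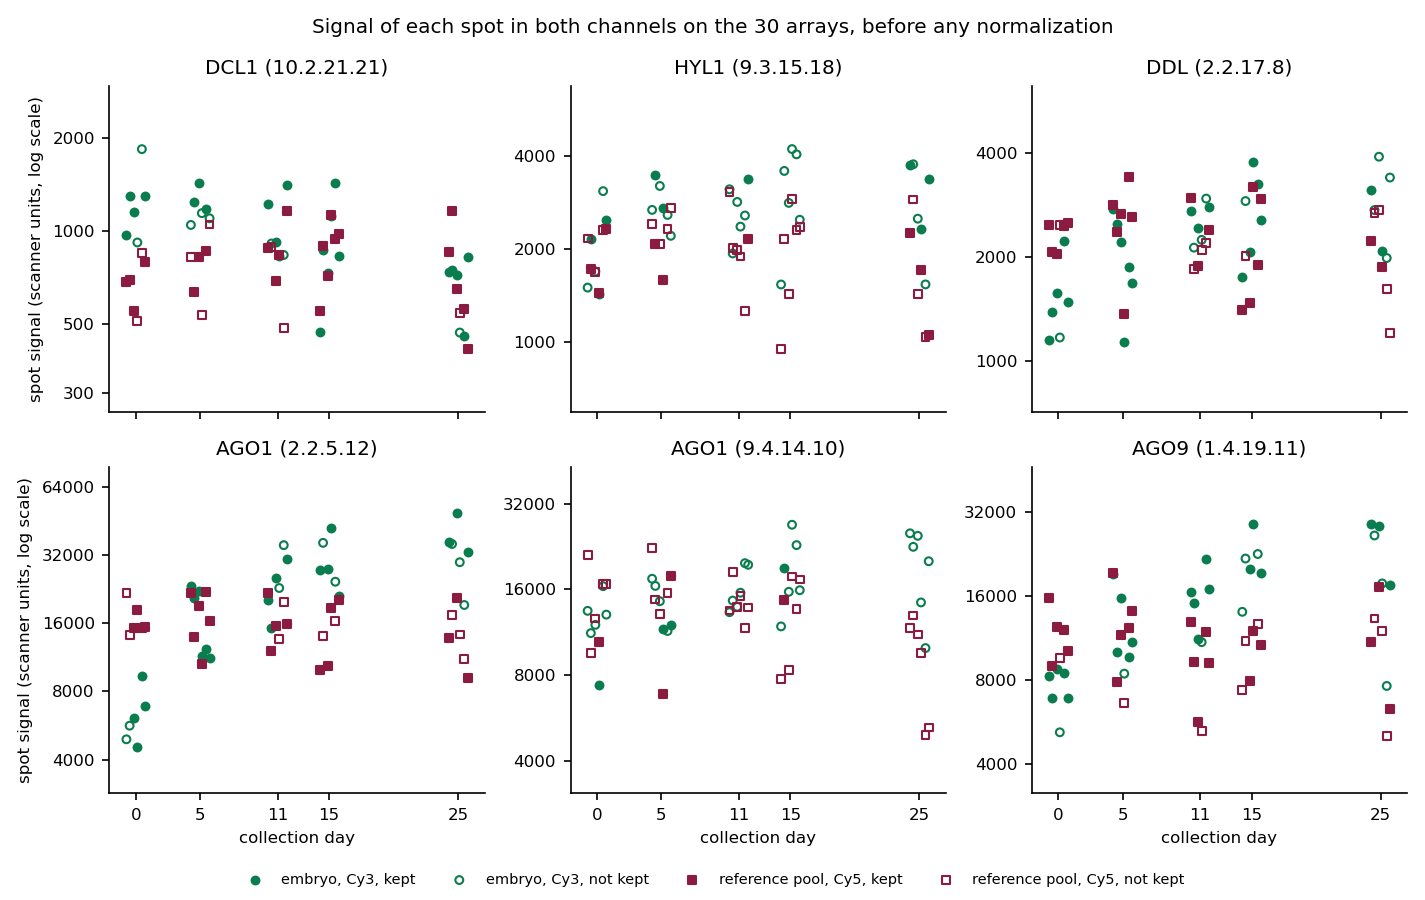
Spot signal in scanner units (y axis, log scale) of the embryo RNA in Cy3 (circles) and the reference pool in Cy5 (squares) on each of the 30 arrays, by collection day (x axis). Filled symbols are arrays that both quality marks kept; for AGO1 (2.2.5.12) the circles lie at 19243 to 48939 on Day25 and at 4565 to 9398 on Day0, while for HYL1 and AGO1 (9.4.14.10) most symbols are open.

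AGO1 (spot 9.4.14.10, unigene 9118) is named after the same *A. thaliana* protein but belongs to a different pine unigene. Both marks kept only 4 of its 30 arrays, although its Cy3 signal was 7366 to 27019 and at least 114.4 times the background. From all arrays the values were -0.04, -0.58 and -0.47 on Day0, -0.50, -0.23 and -0.46 on Day5, 0.19, -0.14 and 0.08 on Day11, 0.24, 0.66 and -0.08 on Day15 and 0.71, 0.38 and 0.42 on Day25. All Day25 samples lay above all samples of Day0, Day5 and Day11, while all Day5 samples lay within the range of Day0.

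In raw signals the median Cy3 of this spot was 12538 on Day0, 13284 on Day5, 15107.5 on Day11, 17491.5 on Day15 and 21355.5 on Day25. The median Cy5 of the pool was 14711.5, 15133, 13875.5, 14186.5 and 10346.5 on these days. The embryo signal increased from day to day, and the pool signal was lowest on Day25.

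Day25 minus Day0 was 0.87 ± 0.19 for AGO1 (9.4.14.10), 1.83-fold (limma adjusted p = 0.0014 over all spots). Day15 minus Day0 was 0.64 ± 0.19 (adjusted p = 0.016). Of the single steps none passed, with Day5 minus Day0 at -0.03 (95% confidence interval -0.43 to 0.37) and Day11 minus Day5 at 0.44 (0.03 to 0.84, adjusted p = 0.19). The call for Day15 against Day0 was lost without Day0 replicate 2, Day0 replicate 3 or Day15 replicate 2 (adjusted p of 0.065, 0.057 and 0.080).

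The difference between the AGO1 spots had another sign in early embryos than later. The log2 ratio of 2.2.5.12 minus that of 9.4.14.10 was -1.21 to -0.48 over the 3 samples of Day0, 0.21 to 0.94 on Day5, 0.43 to 1.14 on Day11, 0.52 to 1.2 on Day15 and 0.36 to 0.81 on Day25. It was below 0 in every Day0 sample and above 0 in the samples of the later days. These signs are relative to the pool and do not say which of the AGO1 transcripts was more abundant. A further spot (1.2.2.19) matches the unigene of AGO1 2.2.5.12 with one clone end and another unigene with the other, and its Day25 minus Day0 difference was 0.08 with a 95% confidence interval of -0.29 to 0.45.

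AGO9 (spot 1.4.19.11), the carrier of silencing small interfering RNAs, rose in early cotyledonary embryos. Its kept values were -0.32, -0.66 and -0.60 on Day0, 0.05, 0.18 and -0.31 on Day5, 0.96, 0.85 and 0.63 on Day11, 1.31 and 0.67 on Day15, where replicate 1 had no kept array, and 1.33, 0.54 and 0.28 on Day25. All samples of Day11 and later lay above all samples of Day0 and Day5. Day25 was the most spread of the days (0.72 ± 0.54, SD, n = 3), and its range covered that of Day11.

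Day25 minus Day0 was 1.24 ± 0.24 for AGO9, 2.37-fold (limma adjusted p = 0.00076), and Day15 minus Day0 was 1.52 ± 0.27, 2.87-fold (adjusted p = 0.00077). Day11 minus Day5 was 0.83 ± 0.24 and was exceeded in size by only 2.23% of the tested spots, but it did not pass (adjusted p = 0.084). The same step from all arrays was 0.84 and passed (adjusted p = 0.047), as did that of DDL, so that 2 of the 6 spots were called higher against 1.82% of all spots called higher and 1.41% lower. Day25 minus Day15 was -0.28 (95% confidence interval -0.85 to 0.30). In that comparison from all arrays DCL1 was the 1 of the 6 spots called, against 6.38% of all spots called higher and 4.35% lower. The Cy3 signal of AGO9 was 7601 to 29119 on Day25 and 5181 to 8747 on Day0, with a small overlap.

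Neighbouring days in the order of AGO9 differed beyond the test only between Day5 and Day25, by 0.74 ± 0.24 (adjusted p = 0.024). Day0 was lowest and Day5 next, and Day25, Day11 and Day15 followed without a difference between neighbours that passed. With the second technical array of each sample alone, Day25 minus Day0 was 0.76 and no longer passed (adjusted p = 0.070).

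**Figure D3:**
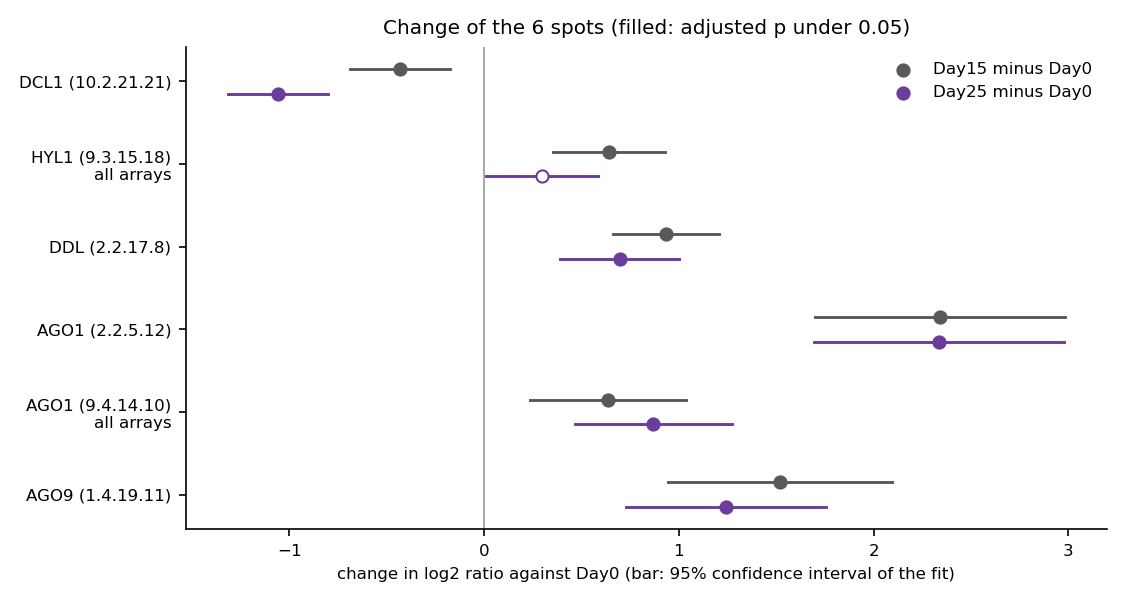
Change in log2 ratio (x axis) of Day15 minus Day0 (grey) and of Day25 minus Day0 (purple) for each of the 6 spots (rows), with 95% confidence intervals of the limma fit as bars. HYL1 and AGO1 (9.4.14.10) are from all arrays, the others from arrays with both quality marks; DCL1 lies at -0.43 and -1.06, AGO1 (2.2.5.12) at 2.34 in both comparisons, and HYL1 on Day25 is the 1 open symbol, which did not pass.

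As a time course, a quadratic curve over the collection days was called at a false discovery rate under 0.01 and an R-squared of at least 0.7. All 4 tested spots were called, where 28% of all tested spots were. R-squared was 0.93 for DCL1, 0.89 for DDL, 0.86 for AGO1 (2.2.5.12) and 0.79 for AGO9. From all arrays HYL1 was called with 0.74 (but not without Day0 replicate 2), and AGO1 (9.4.14.10) with 0.70, at the limit itself, where 29.4% of all spots were called. The call of AGO1 (9.4.14.10) was lost without any 1 of 9 of the 15 samples: replicates 2 and 3 of Day0, replicate 1 of Day15, and each replicate of Day5 and of Day25. With a straight line in place of the curve DCL1 kept its call and the other members lost theirs, HYL1 and AGO1 (9.4.14.10) in the fit of all arrays. The share of all spots called with a straight line is not given here, so this is a description only.

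The comparison of binding with processing was made within samples, by subtracting the log2 ratio of a processing spot from that of a binding spot on values from all arrays. The 9 pairs were each compared between Day25 and Day0 by an exact two-sided permutation test, in which 3 samples against 3 cannot give a p below 0.1. None of the pairs could therefore pass, and the spread of the samples carries the comparison.

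Against DCL1, the log2 ratio of each binding spot moved from below to above. Every ratio is relative to the pool, so a sign or a crossing of 0 does not say which transcript was more abundant. AGO1 (2.2.5.12) minus DCL1 was 1.53 ± 0.24 on Day25 and -1.87 ± 0.25 on Day0 (SD, n = 3 each), a shift of 3.40 (exact permutation p = 0.1, adjusted over the 9 pairs 0.13). AGO1 (9.4.14.10) minus DCL1 was 0.91 ± 0.11 on Day25 and -1.04 ± 0.29 on Day0, a shift of 1.96 with the same p. AGO9 minus DCL1 was 1.03 ± 0.35 on Day25 and -1.21 ± 0.17 on Day0, a shift of 2.24, also with the same p. In each of these pairs all Day25 samples were above 0 and all Day0 samples below it.

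The middle days filled the gap in order. AGO1 (2.2.5.12) minus DCL1 was -0.25 ± 0.34 on Day5, 0.44 ± 0.29 on Day11 and 0.97 ± 0.62 on Day15. AGO9 minus DCL1 was -0.41 ± 0.19 on Day5, 0.43 ± 0.07 on Day11 and 0.74 ± 0.36 on Day15. Both crossed 0 between Day5 and Day11, while AGO1 (9.4.14.10) minus DCL1 was still -0.37 ± 0.10 on Day11 and 0.12 ± 0.38 on Day15.

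Against HYL1 the shifts were smaller. They were 2.01 for AGO1 (2.2.5.12), 0.85 for AGO9 and 0.57 for AGO1 (9.4.14.10), each with no overlap of the Day25 and Day0 samples (exact permutation p = 0.1 each, adjusted 0.13).

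Against DDL, only the AGO1 spot 2.2.5.12 separated the days. Its difference to DDL was 0.97 ± 0.34 on Day25 and -0.61 ± 0.21 on Day0, a shift of 1.58 (exact permutation p = 0.1, adjusted 0.13). AGO9 minus DDL was 0.47 ± 0.42 on Day25 and 0.05 ± 0.19 on Day0, and the samples overlapped (shift 0.42, exact permutation p = 0.2, adjusted 0.23). AGO1 (9.4.14.10) minus DDL was 0.35 ± 0.17 on Day25 and 0.21 ± 0.31 on Day0 (shift 0.14, exact permutation p = 0.6, adjusted 0.6). The pairs join spots from the study's list of changed transcripts, some of them known to change in opposite directions, so a pair without overlap is a description of these spots only. The share of other spot pairs without overlap was not tested.

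**Figure D4:**
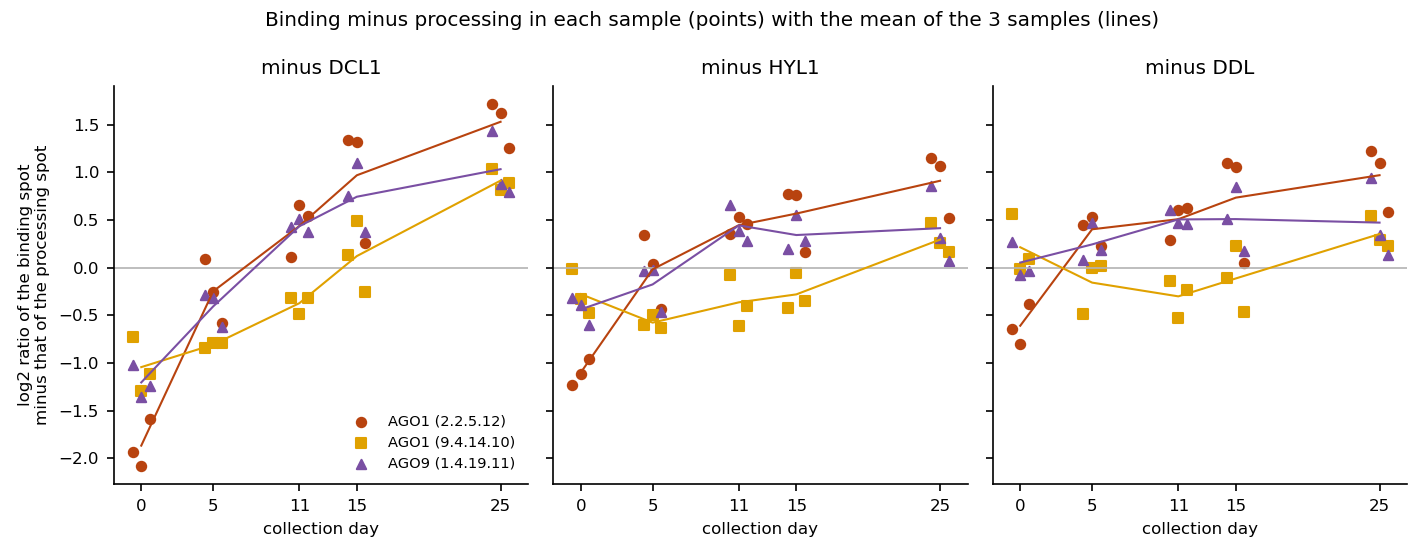
Log2 ratio of a binding spot minus that of DCL1 (left), HYL1 (middle) or DDL (right) in each sample (points, y axis) by collection day (x axis), from all arrays, with lines through the means of 3 samples. Against DCL1 the mean of AGO1 (2.2.5.12) is 1.53 on Day25 and -1.87 on Day0, and against DDL those of AGO1 (9.4.14.10) stay between -0.30 and 0.35.

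DCL1 moved apart from the other processing spots. DDL minus DCL1 was -1.29 to -1.21 on Day0, -0.81 to -0.36 on Day5, -0.18 to 0.05 on Day11, 0.20 to 0.26 on Day15 and 0.49 to 0.67 on Day25. No days overlapped, and they stood in the order of collection. Both spots come from the study's list of changed transcripts and changed in opposite directions. How many other pairs of spots do the same was not tested. HYL1 minus DCL1 had the same order of means, with 0.62 ± 0.10 on Day25 and -0.77 ± 0.17 on Day0 (SD, n = 3 each). HYL1 and DDL were more alike (r = 0.80 over the 15 samples, as a description), and the day means of DDL minus HYL1 were -0.49, -0.42, -0.06, -0.17 and -0.06 on Day0, Day5, Day11, Day15 and Day25.

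Across the 15 samples the profiles of AGO1 (2.2.5.12), AGO9 and DDL were the most alike, and AGO1 (9.4.14.10) was less so (r = 0.65 with DDL). As a description, Pearson's r was 0.92 between DDL and AGO9, 0.92 between AGO1 (2.2.5.12) and AGO9 and 0.90 between DDL and AGO1 (2.2.5.12), whereas it was -0.69 between DCL1 and AGO1 (2.2.5.12) and -0.30 between DCL1 and HYL1. The samples share the reference pool, and DDL and AGO1 (2.2.5.12) were printed by the same pin, within whose spots the arrays were normalized. With 1 curve for the whole array in place of 1 for each pin, Day25 minus Day0 was 0.81 for DDL and 2.33 for AGO1 (2.2.5.12), with adjusted p of 0.0010 and 2.9e-05.

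Among 987 other tested spots with a gene name, those with the closest profile to each member were found by Pearson's r over the 15 samples. These names come only from the study's lists of changed transcripts. Spots that change over the days were thus favoured by the choice, and the high r and the changes are a description only. For DCL1 they were a cysteine protease (r = 0.95), a homolog of the mammalian chaperone P58IPK (0.95) and the cytochrome P450 CYP78A7 (0.94), all lower on Day25 than on Day0 (Day25 minus Day0 of -2.71, -1.84 and -3.15). For AGO1 (2.2.5.12) they were a protein of unknown function with the domain DUF247 (0.97), DROUGHT SENSITIVE 1 (0.97) and a 2-oxoglutarate-dependent oxygenase (0.96). The DUF247 spot was also the second closest to AGO9 (0.97), after an amino acid transporter (0.97) and before a protein with the domain DUF1682 (0.96).

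For HYL1 the closest spots were a 6-phosphogluconate dehydrogenase (r = 0.90), the DUF1682 protein (0.90) and an aldolase-type protein (0.89). For DDL they were a DAHP synthetase (0.97), an enzyme that opens the shikimate pathway, the carotenoid cleavage dioxygenase ATCCD1 (0.96) and an HNH endonuclease (0.96). The DAHP synthetase lies in the same pin block as DDL. For AGO1 (9.4.14.10) they were a RING/U-box protein (0.94), the oxidoreductase ATB2 (0.92) and an aspartyl protease (0.92).

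The array holds 15 other spots that the study's tables tie to small RNA genes, and 6 of them are in its list of changed transcripts. With both marks 10 of the 15 could be tested, and on Day25 4 were higher than on Day0, 1 was lower and 5 did not pass, where 23.6% of all tested spots were called higher and 23.6% lower. The median of Day25 minus Day0 was 0.21 over these 10 spots. Those that did not pass were AGO4, AGO7, the spot 1.2.2.19, FRY1 (1.3.15.13) and SQN.

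Of DCL1's relatives and partners, DRB2 and DRB3 (double-stranded RNA-binding proteins of the family of HYL1) differed in sign. DRB2 was higher on Day25 than on Day0 by 0.83 ± 0.17 (limma adjusted p = 0.0015), with means of 0.42 on Day25 (n = 3) and -0.42 on Day0, where only 2 samples had kept values. DRB3 (5.1.8.21) was lower, with a difference of -0.73 ± 0.21 (adjusted p = 0.011) and means of -0.05 on Day25 and 0.68 on Day0, where again only 2 samples had kept values. The DRB3 call was lost without Day0 replicate 3, with only the samples of these days, and with either technical array alone, and DRB3 was not tested where all 3 samples of every day were required. A ribonuclease III, of the enzyme class to which DCL1 belongs, was higher by 0.54 ± 0.13 (adjusted p = 0.0035).

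Among factors that act on RNA turnover, an ERI1-like exoribonuclease (7.2.16.13) was higher on Day25 than on Day0 by 1.58 ± 0.18, 2.99-fold (limma adjusted p = 6.4e-06), with samples at 0.65 to 0.90 on Day25 and -1.01 to -0.68 on Day0. FCA (9.4.18.18), an RNA-binding protein that controls flowering time in *A. thaliana*, was higher by 0.45 ± 0.14 (adjusted p = 0.012). From all arrays a further FCA spot (8.2.9.24) was lower on Day25, with a difference of -1.01 ± 0.14, so the FCA spots had opposite signs.

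From all arrays, 7 of the 15 spots were higher and 2 were lower on Day25, where 25.2% of all spots were called higher and 25.4% lower. Those that passed only there were the nuclear exoribonuclease XRN3 (6.1.12.3) at 1.31 ± 0.13, FRY1 (3.3.2.4), a phosphatase whose loss impairs XRN enzymes in *A. thaliana*, at 1.43 ± 0.14, a further ERI1-like spot at 0.89 ± 0.21, and the FCA spot 8.2.9.24. A further XRN3 spot (8.2.9.16) did not pass. These 5 had too few kept arrays for the test with both marks.

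**Figure D5:**
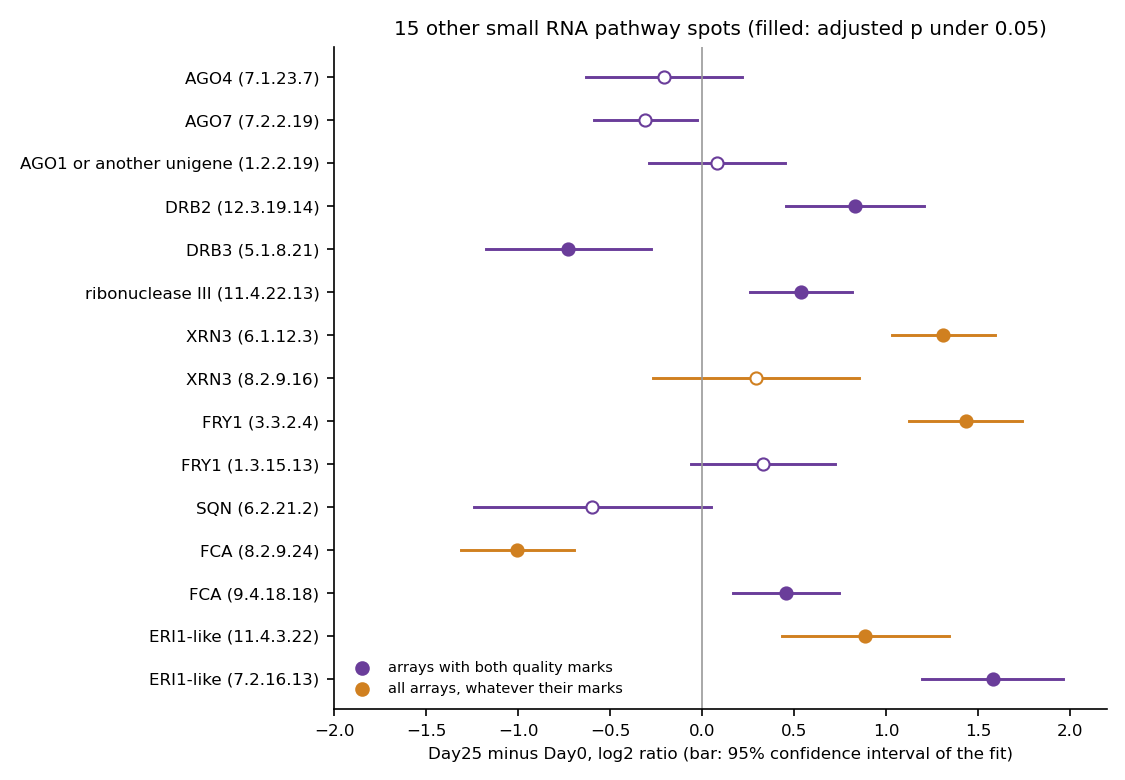
Day25 minus Day0 in log2 ratio (x axis) with 95% confidence intervals of the limma fit for the 15 other small RNA pathway spots. Purple symbols are from arrays with both quality marks and orange symbols from all arrays; filled symbols passed an adjusted p of 0.05, among them DRB2 at 0.83 and DRB3 at -0.73.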

How the data were processed

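The authors scanned the arrays with a ProScanArray scanner, read spot and local background intensities in Cy3 and Cy5 with ImaGene, and deposited these intensities unnormalized. Their normalized log2 ratios (print-tip and cyclic loess, no background correction), deposited too, served here only as an alternative. The files' other columns are quality marks, read from the values: the authors' log2 ratios exist only where the combined mark is 1. The intensities were turned into log2 ratios with no background subtraction, in limma 3.58.1 (R 4.3.3; statmod 1.5.0 for the technical correlation). Within arrays a loess curve was fitted for each of the 48 print tips (span 0.3, 4 iterations). Between arrays cyclic loess was run on the Cy3 and Cy5 values together (span 0.7, 3 iterations), and technical arrays were then averaged. Correlation with the authors' ratios was 0.993 to 0.999 per array. Spots that failed a mark were left out before normalization, or kept in the fit of all arrays. The study's time course tool was replaced by limma with the same curve. All fits were tested on simulated data.

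The members and lists were chosen with earlier results of these data known. Named are every member, each further small RNA pathway spot that passed Day25 versus Day0 in either fit with its values and the rest by name, and for each member the 3 named spots with the highest correlation. Gene names came only from the supplementary tables, which were given in part. Those of the seed protein spots and of the spots closest to a member came only from the lists of changed transcripts. Standard errors are those of the fit, and SD is between biological samples. The labels call the 3 samples of a day biological replicates without saying that they came from separate trees, so p-values measure the spread between embryo pools. Technical arrays were averaged before the fits, so the precision is limited by the 3 embryo pools of a day. Alternatives covered background correction, normalization, quality marks, brightness, the authors' ratios, technical arrays (2 of these settings chosen after seeing the data), a replicate block, samples left out and curve models.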

Additional observations from a re-analysis of the deposited data

How the results depend on the processing

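The Day25 versus Day0 calls of DCL1, DDL and AGO1 (2.2.5.12) held under all 28 alternatives, and that of AGO9 under all but 1. The call of AGO1 (9.4.14.10) held under the 26 alternatives that were run for it. HYL1 and AGO1 (9.4.14.10) have no value in the authors' ratios on any array, so that alternative could not be run for them. Chosen after seeing the data, the first or second technical array alone was used: AGO9 was then 0.76 with the second (adjusted p = 0.070), and DCL1, Day15 versus Day0, was -0.49 with the first and -0.40 with the second, both not called. Scaled log2 ratios gave -0.35 there. AGO1 (9.4.14.10), Day15 versus Day0, was 0.64 but not called when only these days' samples were fitted, and 0.44 to 0.81 with single samples left out. HYL1, Day25 versus Day0, was 0.22 to 0.34 with single samples left out and was called only without Day15 replicate 3.

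For the time course, adjusted p with a straight line was 0.0061 for DDL, 0.00091 for AGO1 (2.2.5.12), 0.0036 for AGO9, 0.14 for HYL1 and 0.00020 for AGO1 (9.4.14.10), none called, since a call also needs an R-squared of 0.7. AGO1 (9.4.14.10), at that limit, was not called with normexp (0.00078), scaling (0.0013), 30 single arrays (1.5e-05), the first (0.0015) or second array (0.00086), and single samples left out gave 0.00011 to 0.0028, with the call lost for 9 of 15. HYL1 was not called with 30 arrays (0.00019), the first array (0.0047) or a false discovery rate of 0.001 (0.0011), and gave 0.00074 to 0.0075 with samples left out.

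Small differences that changed sign were never called. AGO1 (2.2.5.12), Day25 versus Day15, was 0.00072 with normexp, 0.0019 from all arrays and -0.34 to 0.18 with samples left out. AGO1 (9.4.14.10), Day5 versus Day0, was 0.10 with 1 loess per array, 0.021 with no step between arrays, 0.097 with the second array and -0.14 to 0.13 with samples left out. DCL1, Day5 versus Day0, was 0.077 with scaling, 0.0092 with the second array and -0.18 to 0.0061 with samples left out, and Day11 versus Day5 was 0.00034 from all arrays and -0.15 to 0.036 with samples left out. DDL, Day15 versus Day11, was -0.0028 with the second array and -0.028 to 0.052 with samples left out. AGO9 was -0.14 to 0.50 for Day15 versus Day11 and -0.59 to 0.041 for Day25 versus Day15 with samples left out. DDL, Day11 versus Day5, lost its call with 14 of 28 alternatives, 9 of them samples left out. DDL, Day5 versus Day0, was called only without Day5 replicate 3 (0.47, adjusted p = 0.049).

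Of the other small RNA spots 4 rose and 1 fell. From all arrays 7 rose and 2 fell, 3 fell with 1 loess per array, 2 fell in the authors' ratios, and 0 fell with values in all samples, with only the compared days, or with the first or second array, where 2 and 1 rose. With samples left out 3 to 4 rose and 0 to 2 fell: 0 without Day0 replicate 3, and 2 without Day5 replicate 1 or 3. Over all tested spots 3427 rose and 3429 fell from Day0 to Day25, and the spots that passed in either direction numbered 13432 from all arrays, 3024 with values in all samples and 4378 with the second array. The cause was not tested.

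With the replicate number as a block, Day25 versus Day0 was -1.06 for DCL1, 0.66 for DDL, 2.25 for AGO1 (2.2.5.12) and 1.24 for AGO9, all still called, and 6800 spots passed. AGO9, Day11 versus Day5, passed with the block (adjusted p = 0.036). The samples share only a number: same-numbered deviations correlated at -0.38 to 0.49, and 5 of 15 samples were nearest to their own number. Only 2 samples were kept on 1 day for DDL, AGO1 (2.2.5.12) and AGO9, and DCL1 is dim, which limits these values.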
